A study of Mus musculus with 6 samples.

Results

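NRF2, the protein encoded by Nfe2l2, is the transcription factor that switches on the response to oxidants and electrophiles. In unstressed cells KEAP1 holds it in the cytoplasm and delivers it to the CUL3 ubiquitin ligase for destruction. Oxidation of KEAP1 cysteines frees NRF2, which pairs with small MAF proteins at antioxidant response elements. In the liver its targets include glutathione enzymes and a second group that acts outside glutathione, which detoxifies quinones, breaks down haem, repairs peroxiredoxins, imports cystine and supplies NADPH. The genes described here are Nfe2l2, Keap1 and 8 targets of this second group, namely Nqo1, Hmox1, Srxn1, Txnrd1, Slc7a11, G6pdx, Pgd and Osgin1. They were chosen by name, and all 10 were found as 1 row each among the 41388 gene identifiers of the deposited table.

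RNA from the livers of wild type mice was compared with that of Atp7b-/- animals, a model of Wilson disease in which the loss of a copper pump leaves copper in the liver. There were 3 wild type and 3 Atp7b-/- libraries, all from mice of 6 weeks on the C57BL x 129S6/SvEv background that ate a diet with 16 ppm copper. Which exons of Atp7b were targeted was not stated in the labels. The library titles differ, and so does the labelled sex within each genotype. The labels do not state that every library is from a different animal, so p-values measure the spread between these libraries. Reads of 54 bases were paired-end for wild type replicate 1 and for Atp7b-/- replicate 3, and single-end for the remaining 4 libraries. Replicates are numbered in the order of deposition.

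Total counts per library were 5919389 to 25973968. Levels below are CPM, the usual depth-scaled counts, after TMM scaling of the library sizes. Atp7b itself stood at 25.3, 85.2 and 59.7 CPM in wild type replicates 1 to 3 and at 19.2, 13.7 and 13.3 CPM in Atp7b-/- replicates 1 to 3, so the genotypes did not overlap, with a log2 difference of -1.73 (SE 0.30, adjusted p = 0.02). The metallothionein gene Mt2, which metals induce, was 15.8-fold higher in Atp7b-/- livers (adjusted p = 0.00101 in edgeR). Its level was 985, 1084 and 134 CPM in Atp7b-/- replicates 1 to 3. Mt1, the other metallothionein gene checked, was 12.6-fold higher (adjusted p = 0.0337 in edgeR). The genotypes overlapped for Mt1, with 831 CPM in wild type replicate 2 and 421 CPM in Atp7b-/- replicate 3. With 1 library left out at a time, the Mt1 call held in 3 of 6. The 9 matched hepatocyte markers were abundant in every library but summed to less in Atp7b-/- livers, 73216 to 76808 CPM against 90976 to 117989 CPM, with none called in edgeR or DESeq2 and 1 at an unadjusted p under 0.05 in edgeR, and their part in the results below was not tested. Female is the labelled sex of wild type replicates 2 and 3 and, among the Atp7b-/- libraries, of replicate 3. The female transcript Xist was at 371 CPM in wild type replicate 2 but at 17.4 CPM in wild type replicate 3 and 0.482 CPM in Atp7b-/- replicate 3. The Y-linked gene Ddx3y was at 28.0 and 126 CPM in the last 2 of these against 0.34 CPM in wild type replicate 2. Wild type replicate 3 and Atp7b-/- replicate 3 therefore go against their labelled sex, and calls that are lost when both are left out, an alternative chosen after seeing the data, are given with that value. Wild type replicate 3 showed both transcripts, and whether its RNA is mixed was not tested. Ddx3y was at 161 CPM in wild type replicate 1 and at 29.5 and 37.7 CPM in Atp7b-/- replicates 1 and 2. Only wild type replicate 2 had almost none, so sex by expression was not balanced between genotypes, and its part was not tested.

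Among the 10 genes, Srxn1 was the one that passed the test. The promoter windows of Srxn1 and of Nqo1, the gene most used as a marker of NRF2 activity, are shown for the region next to the transcription start alone. Both come from RefSeq on build GRCm38.p6 and run 5′ to 3′ on the gene's strand from 250 bases before the start to 50 after it. Capitals mark the antioxidant response element core TGACNNNGC, the same core with G at the fourth base (TGAGNNNGC), and the AP-1 site TGANTCA, each searched on both strands. The G form and the AP-1 site were added after the windows had been read.
Srxn1, chr2:152105274-152105573, plus strand: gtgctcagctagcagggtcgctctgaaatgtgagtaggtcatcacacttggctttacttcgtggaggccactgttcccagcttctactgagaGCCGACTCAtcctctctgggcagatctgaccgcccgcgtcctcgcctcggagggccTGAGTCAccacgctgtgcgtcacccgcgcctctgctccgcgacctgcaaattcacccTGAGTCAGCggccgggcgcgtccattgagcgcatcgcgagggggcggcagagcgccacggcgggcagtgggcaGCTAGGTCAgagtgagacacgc
Nqo1, chr8:107403156-107403455, minus strand: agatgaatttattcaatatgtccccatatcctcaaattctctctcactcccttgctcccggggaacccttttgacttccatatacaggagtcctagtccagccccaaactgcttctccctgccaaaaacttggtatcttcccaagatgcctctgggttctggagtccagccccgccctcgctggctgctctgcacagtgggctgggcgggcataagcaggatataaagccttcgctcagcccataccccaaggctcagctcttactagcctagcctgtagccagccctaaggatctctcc

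The Srxn1 window holds 1 match of TGACNNNGC, which begins 28 bases after the start on the opposite strand, and 2 of TGAGNNNGC, which begin 158 and 45 bases before it. Of its 2 AP-1 matches, at 102 and 45 bases before the start, the second lies within the TGAGTCAGC match. The G-form match of Osgin1 also holds an AP-1 site. None of these letters is in the Nqo1 window. Sequence more than 250 bases before the start was not searched for any gene, so elements farther upstream would be missed. A window was at hand for 9 of the 10 genes (12 windows), and 5 of the 9 had a TGACNNNGC match, 3 a TGAGNNNGC match and 7 either. Among all 32851 windows, 12.4% held TGACNNNGC, 17.6% TGAGNNNGC, 27.8% either and 7.81% TGANTCA. These shares count windows, whereas the 5, 3 and 7 above count genes with a match in any of their windows. A gene with several windows has more chances of a match, so the counts and the shares are not alike. The matches of the other genes, with 10 bases on each side and the core in capitals, were as follows. They were chosen for display after the windows had been read, and a core that begins with GC lies on the opposite strand. The Pgd match is in the downstream one of its windows (chr4:149166033-149166332), 3 bases after that start. The upstream Pgd window (chr4:149166656-149166955) held none. The Txnrd1 match is in the window chr10:82858956-82859255, and the other Txnrd1 windows held none.
Nfe2l2: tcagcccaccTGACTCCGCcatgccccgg
Txnrd1: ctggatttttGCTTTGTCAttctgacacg
G6pdx: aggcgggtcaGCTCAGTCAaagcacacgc
Pgd: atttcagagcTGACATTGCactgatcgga
Slc7a11: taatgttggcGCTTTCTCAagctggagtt
Osgin1: aggggcccctGCTGACTCAcgcttatgaa

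Of the 10 genes, 1 rose in Atp7b-/- livers, 8 did not pass the test and Slc7a11 had too few counts to be tested. Over the whole table of 12988 tested genes 1.9% were called higher and 0.585% lower, together 2.49%, and the 1 of 9 rests on a single gene. A positive log2 fold change was found in 8 of the 9, as in 49.1% of all tested genes, and the smallest of the 8 was 0.41 (Pgd). Srxn1 and Txnrd1 had Atp7b-/- values that were all above the wild type ones, as had 5.23% of tested genes, and no member had them all below, as had 3.28% (8.51% either way). In the paired-end pair all 9 were higher in Atp7b-/- liver, as were 49.3% of tested genes, and 7 had a higher single-end mean, as had 50.2%. Those 7 were higher in both layouts, against 28.8% of tested genes, and 58.1% of tested genes had the same sign in both. Both single-end Atp7b-/- libraries were above both wild type ones for 4 genes, Nfe2l2, Nqo1, Srxn1 and Txnrd1, against 23.5% of tested genes.

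**Figure D1:**
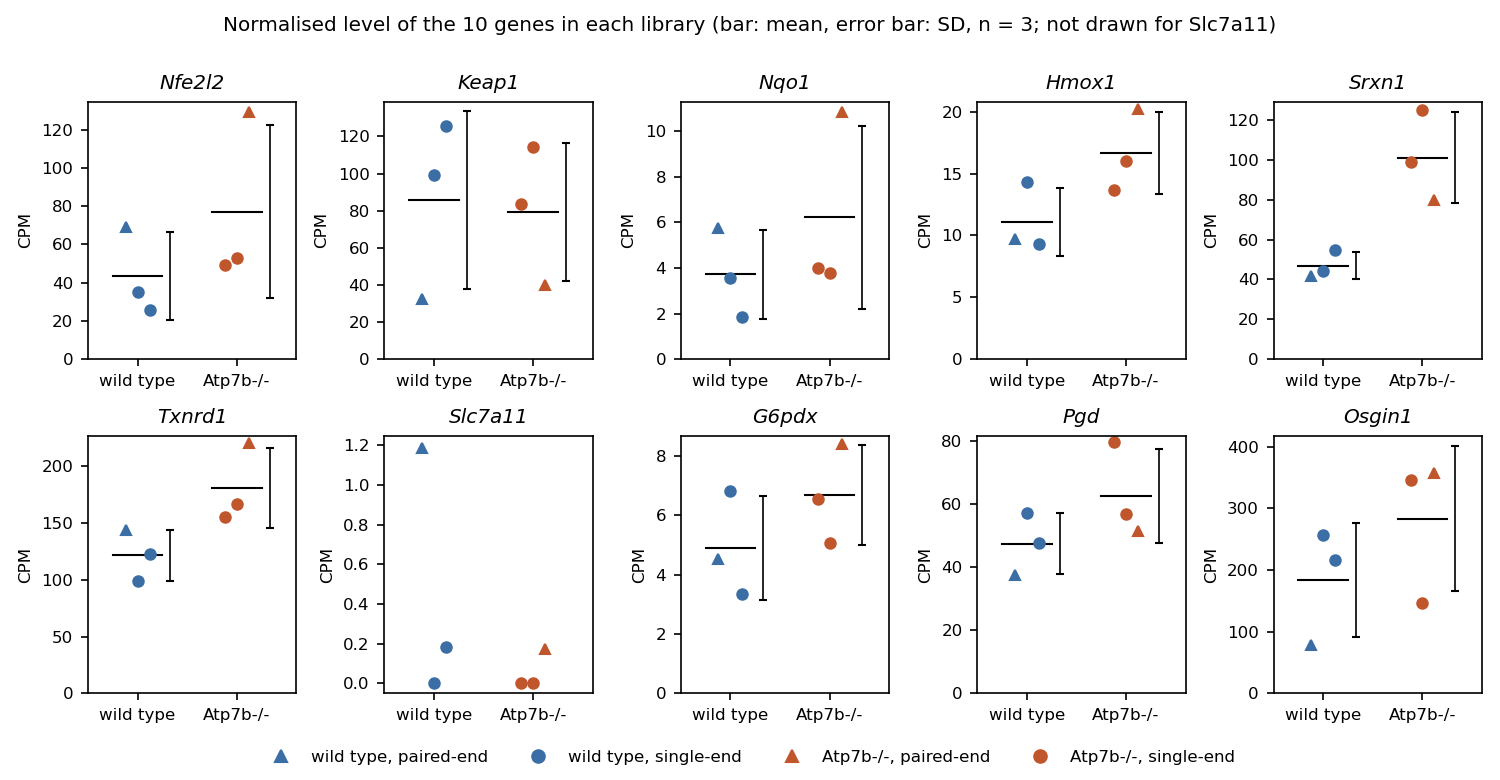
Level in CPM (vertical axes, each from 0 or just below it) of the 10 genes in each library, by genotype. Triangles are paired-end and circles single-end libraries. A bar marks the mean and an error bar 1 SD (n = 3), neither of which is drawn for Slc7a11. For Srxn1 the 3 Atp7b-/- libraries lie between 79.7 and 125 CPM, all above the wild type ones at 41.6 to 54.5 CPM, whereas Keap1 follows the layout and not the genotype.

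Neither of the 2 controllers of the pathway passed the test. Nfe2l2 (ENSMUSG00000015839, chromosome 2, 75675513 to 75704641, minus strand, GRCm38) was at 69.3, 35.3 and 25.8 CPM in wild type replicates 1 to 3 and at 49.3, 52.9 and 129 CPM in Atp7b-/- replicates 1 to 3. Within each layout every Atp7b-/- library was above every wild type library, while across layouts the ranges overlapped because the paired-end wild type library was high. The means were 43.4 ± 22.9 and 77.1 ± 45.1 CPM (SD, n = 3 each), a log2 difference of 0.79 (SE 0.19, adjusted p = 0.0789), which did not pass the threshold in edgeR. DESeq2 called it (log2 fold change 0.78, adjusted p = 0.00755), as did edgeR with no filter on low counts (0.82, adjusted p = 0.0106).

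Keap1 (ENSMUSG00000003308, chromosome 9, 21229730 to 21239361, minus strand), the sensor that marks NRF2 for destruction, was at 32.6, 99.3 and 125 CPM in wild type replicates 1 to 3. In Atp7b-/- replicates 1 to 3 it was at 83.6, 114 and 40.0 CPM. The low values are the paired-end library of each genotype, and the genotypes overlapped. The log2 fold change was -0.03 (SE 0.22, adjusted p = 0.977), and its sign was positive in the paired-end pair alone (0.29) and in 4 other alternatives. An antisense gene, Gm16754, covers 10.9% of the Keap1 exon bases with 76 counts in all, and the strand setting of the counting is not given, so reads there cannot be told apart.

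Per kilobase of exon (RPKM, from the CPM values), the order of these 2 genes followed the layout in both genotypes. Nfe2l2 was above Keap1 in the paired-end libraries, with levels of 18.3 against 6.95 RPKM in wild type and 34.0 against 8.52 RPKM in Atp7b-/- livers. In the 4 single-end libraries Nfe2l2 was at 6.79 to 13.9 RPKM and Keap1 at 17.8 to 26.7 RPKM.

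The 15 other tested genes of NRF2 control, which form the ubiquitin ligase, the MAF partners, the BACH repressors and related factors, held no called gene in edgeR, with 2 at an unadjusted p under 0.05. Their median log2 fold change was 0.07, against -0.01 over all tested genes, and 8 of 15 were positive. Bach2, a relative of the haem-sensing repressor BACH1, had the smallest p, with a wild type range of 4.63 to 7.63 CPM and an Atp7b-/- range of 7.86 to 23.1 CPM, ranges that did not overlap (log2 fold change 1.31, SE 0.30, adjusted p = 0.0649). Bach2 alone of this list was called by DESeq2, by limma-voom, by edgeR with no filter and without Atp7b-/- replicate 2. The peptidase gene Dpp3, whose protein binds KEAP1, followed with 0.45 (SE 0.18, adjusted p = 0.293).

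Srxn1 encodes sulfiredoxin, which restores peroxiredoxins that have been over-oxidised, and it rose 2.14-fold. This gene (ENSMUSG00000032802, chromosome 2, 152105516 to 152111376, plus strand) was at 41.6, 44.3 and 54.5 CPM in wild type replicates 1 to 3 and at 98.6, 125 and 79.7 CPM in Atp7b-/- replicates 1 to 3. Every Atp7b-/- library was higher than every wild type library. The mean went from 46.8 ± 6.81 to 101 ± 22.7 CPM (SD, n = 3 each), a log2 difference of 1.10 (SE 0.20, adjusted p = 0.0204 in edgeR). The difference was 0.94 in the paired-end pair and 1.17 between the single-end means.

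The direction of the Srxn1 change did not depend on any single library, but its call did. With 1 library left out at a time, the log2 fold change stayed between 0.98 and 1.19. The adjusted p was 0.0943, 0.0634 and 0.0396 without wild type replicates 1, 2 and 3, and 0.0374, 0.073 and 0.101 without Atp7b-/- replicates 1, 2 and 3, so the call held in 2 of 6. Without both libraries that go against their labelled sex it was 1.33 (adjusted p = 0.0548). With the single-end libraries alone the adjusted p was 0.0995, without a layout term 0.626, and with labelled sex in place of layout 1. Over all tested alternatives it ran from 4.97e-05 to 1.

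Txnrd1 encodes the cytosolic thioredoxin reductase, which returns thioredoxin to its reduced form at the expense of NADPH. It (ENSMUSG00000020250, chromosome 10, 82833951 to 82897712, plus strand) was at 143, 98.7 and 122 CPM in wild type replicates 1 to 3 and at 155, 166 and 220.4 CPM in Atp7b-/- replicates 1 to 3. All 3 Atp7b-/- libraries were above the wild type ones, the closest being 155 against 143 CPM, which come from different layouts. The log2 fold change was 0.57 (SE 0.19, adjusted p = 0.186), which did not pass the test, and it was 0.62 in the paired-end pair and 0.55 between the single-end means.

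None of 17 other tested genes of the thioredoxin system was called in edgeR, and 2 had an unadjusted p under 0.05. Their median log2 fold change was 0.19, and 12 of 17 were positive. Sesn2, a sestrin gene that responds to several stresses, ranged from 5.76 to 16.7 CPM in the wild type and from 17.1 to 27.4 CPM without Atp7b, with no overlap (log2 fold change 1.09, SE 0.25, adjusted p = 0.0641). Sesn2 was called by DESeq2, by limma-voom, without wild type replicate 3 and, together with Txnip, by edgeR with no filter. Txnrd3, a reductase best known from testis, stood at -0.77 (SE 0.29, adjusted p = 0.251). Txn1, the thioredoxin that TXNRD1 reduces, stood at 0.39 (SE 0.23, adjusted p = 0.504), and Prdx1, a peroxiredoxin gene, was at 984 and 936 CPM in the paired-end libraries but at 84.1 to 136 CPM in the single-end ones. Both are named after their values were seen, and the part of library layout in them was not tested.

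**Figure D2:**
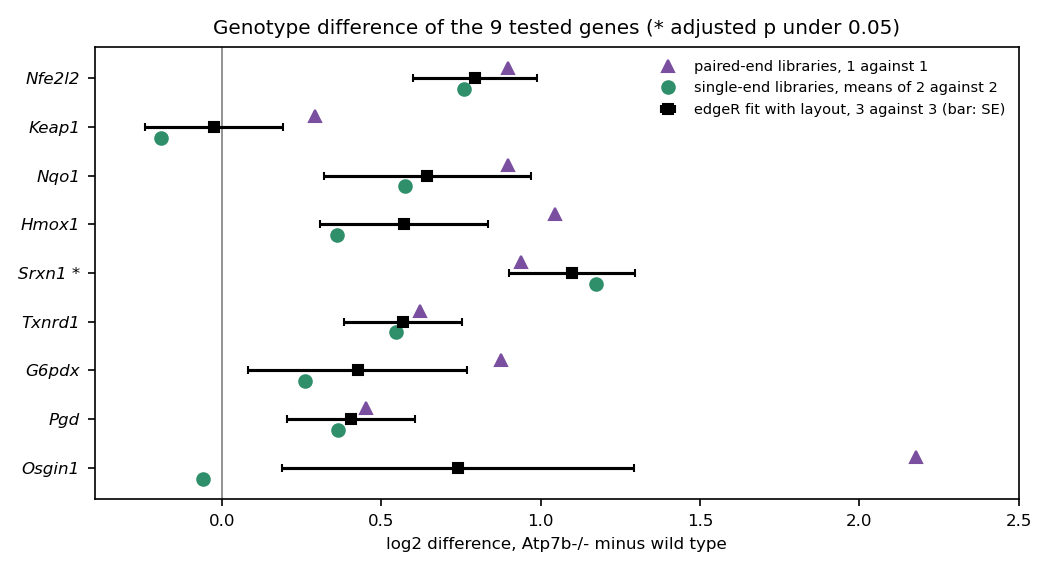
Difference between genotypes on the log2 scale (horizontal axis) for the 9 tested genes, from the edgeR fit with its SE (squares), from the paired-end pair (triangles) and between the means of the single-end libraries (circles). The triangles are all to the right of 0, from 0.29 for Keap1 to 2.18 for Osgin1, while the circles of Keap1 and Osgin1 are left of it at -0.19 and -0.06.

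The quinone reductase gene Nqo1 and the haem oxygenase gene Hmox1, which are widely used to read out NRF2, did not pass the test. Nqo1 (ENSMUSG00000003849, chromosome 8, 107388225 to 107403206, minus strand) was at 5.76, 3.57 and 1.85 CPM in wild type replicates 1 to 3 and at 4.02, 3.79 and 10.8 CPM in Atp7b-/- replicates 1 to 3. These levels rest on 10 to 315 counts per library. Within each layout the Atp7b-/- libraries were higher, by as little as 3.79 against 3.57 CPM, and across layouts the genotypes overlapped. The fitted difference was 0.64 in log2 units (SE 0.33, adjusted p = 0.417).

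Hmox1 (ENSMUSG00000005413, chromosome 8, 75093621 to 75100589, plus strand), which opens haem to biliverdin, iron and carbon monoxide, was at 9.73, 14.3 and 9.27 CPM in wild type replicates 1 to 3. It was at 13.7, 16.0 and 20.2 CPM in Atp7b-/- replicates 1 to 3. Wild type replicate 2 was higher than Atp7b-/- replicate 1, so the ranges overlapped. The log2 fold change was 0.57 (SE 0.26, adjusted p = 0.369), with 1.04 in the paired-end pair and 0.36 between the single-end means. Without both libraries that go against their labelled sex it was 0.05 and that of Nqo1 0.13.

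Hmox1 is also made by macrophages and in cells that take up red blood cells, so their markers are given beside it. The 13 Kupffer cell and macrophage markers summed to 264 to 574 CPM in wild type livers against 286 to 487 CPM, and 5 of 13 had a positive log2 fold change. The 9 erythroid markers summed to 66.6 to 220.1 CPM in the wild type against 237 to 344 CPM, ranges that did not overlap. All 5 tested erythroid markers were positive, none was called in edgeR or DESeq2 and 1 had an unadjusted p under 0.05 in edgeR. Much of the sum was Alas2, at 12.4 to 191 against 184 to 281 CPM, which overlapped. The globin genes Hba-a1, Hba-a2, Hbb-bs and Hbb-bt each overlapped between genotypes as well. The part of erythroid cells in the Hmox1 values was not tested. In bulk liver, a change in the number of cells of a type and a change in RNA per cell cannot be told apart.

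The fitted log2 fold changes of the haem breakdown and ferritin genes around Hmox1 lay within narrow limits, with an SE of up to 0.37 (Ftl1). The sign differed between layouts for some of these genes. Hp, named after its values were seen, was at -0.49 in the paired-end pair and 0.27 between the single-end means. None of 11 was called in edgeR or DESeq2, 0 had an unadjusted p under 0.05 in edgeR, the median log2 fold change was 0.02, and the values lay between -0.14 and 0.23. Hpx, which encodes the haem scavenger hemopexin, was at 0.23 (SE 0.21, adjusted p = 0.682). Slc48a1, which encodes a haem transporter of the lysosome, was also at 0.23 (SE 0.27, adjusted p = 0.768).

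The NADPH-producing enzymes of the pentose phosphate pathway, on which the thioredoxin and quinone reductases draw, did not pass the test. Pgd (ENSMUSG00000028961, chromosome 4, 149149991 to 149166771, minus strand), the 6-phosphogluconate dehydrogenase gene, was at 37.7, 57.2 and 47.6 CPM in wild type replicates 1 to 3 and at 79.6, 56.8 and 51.6 CPM in Atp7b-/- replicates 1 to 3. Only Atp7b-/- replicate 1 lay above all wild type libraries. On the log2 scale the change was 0.41 (SE 0.20, adjusted p = 0.406).

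G6pdx (ENSMUSG00000031400, chromosome X, 74409483 to 74429194, minus strand), which encodes the glucose-6-phosphate dehydrogenase that opens the pathway, was low, at 4.52, 6.80 and 3.34 CPM in wild type replicates 1 to 3. It was at 6.53, 5.05 and 8.40 CPM in Atp7b-/- replicates 1 to 3, and the genotypes overlapped. The log2 fold change was 0.43 (SE 0.34, adjusted p = 0.636) and turned to -0.22 without both libraries that go against their labelled sex. Exons of Ikbkg on the other strand cover 13.6% of the G6pdx exon bases. Ikbkg had 12369 counts over the 6 libraries against 589 for G6pdx, and with the strand setting not given, reads of the shared stretch cannot be told apart.

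Other genes of the pentose phosphate pathway and of NADPH supply showed no called change in 12 of 12 in edgeR or DESeq2, and 1 had an unadjusted p under 0.05 in edgeR. The median log2 fold change was 0.04. Me1, the malic enzyme gene and a known NRF2 target, had the smallest p with 0.55 (SE 0.22, adjusted p = 0.306), and the transaldolase gene Taldo1 followed with -0.31 (SE 0.19, adjusted p = 0.519).

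Slc7a11 encodes the cystine carrier of system xc-, which feeds cysteine and so glutathione synthesis, and it was barely detected in these livers. The gene (ENSMUSG00000027737, chromosome 3, 49892526 to 50443614, minus strand) had 26, 0 and 1 counts in wild type replicates 1 to 3 and 0, 0 and 5 counts in Atp7b-/- replicates 1 to 3. The 31 counts of the paired-end libraries make up nearly all of the 32, and wild type replicate 1 alone holds 26 of them. A count of 0 allows up to 3 counts, or 0.255 CPM in wild type replicate 2 and 0.175 and 0.421 CPM in Atp7b-/- replicates 1 and 2. In the paired-end pair the level was 6.90 times as high in wild type as in Atp7b-/- liver (95% exact interval 2.61 to 23.0, counting error only), a comparison of 2 libraries with no replicate check. Slc7a11 is thus the 1 gene among the 10 whose paired-end values run the other way.

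Among 12 tested genes of cystine and amino acid transport and of the ATF4 response, which also controls Slc7a11, none was called in edgeR, and 7 had an unadjusted p under 0.05. DESeq2 called 3 higher (Slc3a1, Slc1a4 and Asns) and 2 lower (Slc1a5 and Chac1), and edgeR with no filter called 3 higher (Slc1a4, Ddit4 and Cth) and 1 lower (Chac1). Their log2 fold changes ran from -1.99 to 3.46 with a median of -0.16, in both directions. Slc1a5, a glutamine carrier gene, was at 3.91 to 6.31 against 1.63 to 3.24 CPM (log2 fold change -1.15, SE 0.32, adjusted p = 0.122). Slc1a4, a carrier gene of small neutral amino acids, was at 5.00 to 7.73 against 8.42 to 21.3 CPM (1.21, SE 0.34, adjusted p = 0.123). Asns, the asparagine synthetase gene, was at 20.7, 1.27 and 3.52 CPM in wild type replicates 1 to 3 and at 78.3, 37.9 and 59.7 CPM in Atp7b-/- replicates 1 to 3, without overlap (log2 fold change 3.46, SE 0.94, adjusted p = 0.215). It was called when either or both of the paired-end libraries were left out and, together with Ddit4, without both libraries that go against their labelled sex. Slc3a2, the heavy chain partner of SLC7A11, stood at -0.52 (SE 0.19, adjusted p = 0.244). Asns and Slc3a2 are named after their values were seen.

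Osgin1 (ENSMUSG00000074063, chromosome 8, 119434124 to 119446256, plus strand), which encodes an oxidative stress induced growth inhibitor, did not pass the test. Its difference was large in the paired-end pair but not between the single-end means. It was at 78.8, 256 and 216 CPM in wild type replicates 1 to 3 and at 346, 147 and 357 CPM in Atp7b-/- replicates 1 to 3. Atp7b-/- replicate 2 was below 2 of the wild type libraries, and the genotypes overlapped. Its fitted log2 fold change was 0.74 (SE 0.55, adjusted p = 0.621). It was 2.18 in the paired-end pair and -0.06 between the single-end means, and it dropped to 0.07 without either paired-end library. Without Atp7b-/- replicate 2, the lowest of the Atp7b-/- libraries, it rose to 1.28.

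The test of whether the genotype difference itself differed between layouts did not pass for any of the 9 genes in edgeR or DESeq2, and 0.0154% of all tested genes were called in it. The adjusted p was 0.987 to 0.997. Osgin1 had an unadjusted p of 0.0174, with a difference of 2.12 on the log2 scale (SE 0.69). Within a layout the labelled sex follows the genotype, so this test is also that of labelled sex, and its spread comes from the single-end libraries.

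In wild type livers the levels per kilobase of exon covered a wide range. Osgin1 was highest at 68.7 ± 34.8 RPKM (SD, n = 3), and its lowest library, 29.5 RPKM, was above every value of the next gene. Keap1 (18.3 ± 10.2), Txnrd1 (17.1 ± 3.15), Srxn1 (16.6 ± 2.41) and Nfe2l2 (11.4 ± 6.03 RPKM) followed, and neighbours in this order overlapped. Pgd at 7.37 ± 1.52 RPKM overlapped with Nfe2l2 above it and with Hmox1, at 6.34 ± 1.58 RPKM, below it. Nqo1 (2.4 ± 1.26 RPKM) and G6pdx (1.59 ± 0.571 RPKM) were lower and overlapped with each other, and Slc7a11 did not exceed 0.0854 RPKM. These means pool both layouts, and in the paired-end wild type library alone Keap1, at 6.95 RPKM, was below Txnrd1 (20.2), Nfe2l2 (18.3) and Srxn1 (14.7 RPKM). In Atp7b-/- livers Srxn1 stood at 35.8 ± 8.04 RPKM and Txnrd1 at 25.5 ± 4.94 RPKM.

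**Figure D3:**
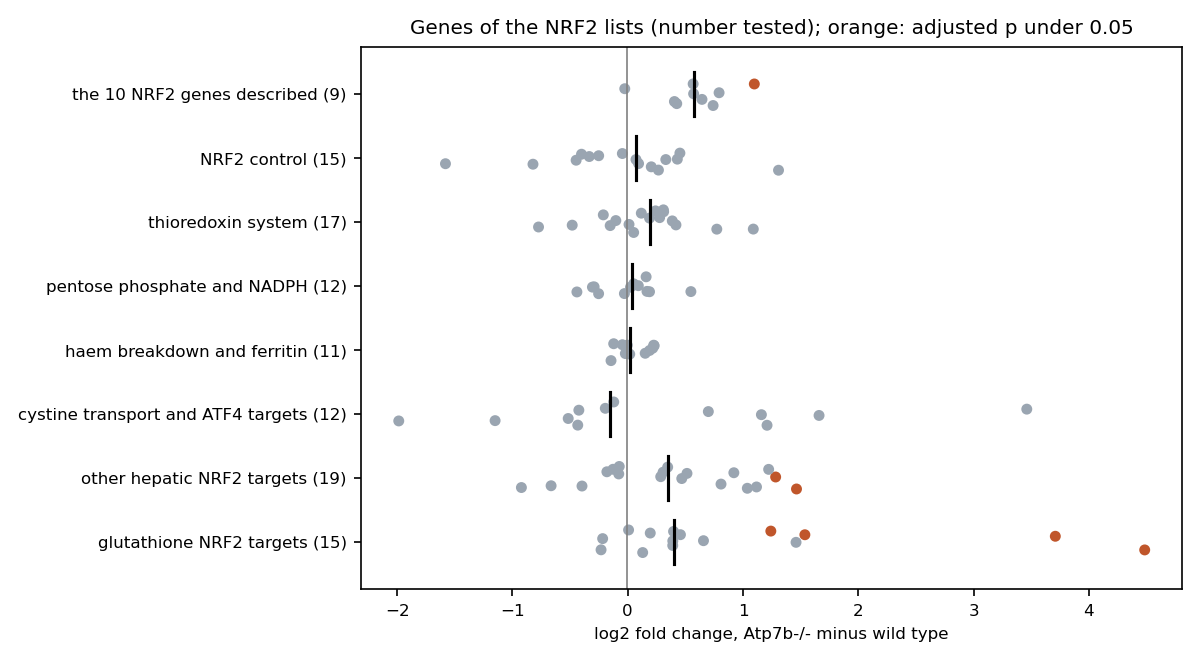
Log2 fold change of Atp7b-/- over wild type (horizontal axis) for each tested gene of the 10 described and of 7 other lists, with the number tested in brackets, a black bar at the list median and orange points for called genes. Called genes are seen in the rows of the 10 genes (1), other hepatic NRF2 targets (2) and glutathione targets (4, of which 2 reached the filter's level in Atp7b-/- libraries alone), and the grey line marks the median of all tested genes at -0.01.

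Further known NRF2 targets of the liver outside these groups held 2 called genes, both higher, among 19 tested, beside the 1.9% of all tested genes called higher. Aox1, the aldehyde oxidase gene, was at 65.2 to 223 CPM in the wild type and at 252 to 479 CPM without Atp7b (log2 fold change 1.46, SE 0.30, adjusted p = 0.0449). Pir, which encodes the iron-binding protein pirin, was at 9.08 to 25.1 against 27.4 to 39.8 CPM (1.28, SE 0.25, adjusted p = 0.0337). Each call was lost in 4 of the 6 leave-outs: for Aox1 without wild type replicate 1 or Atp7b-/- replicates 1, 2 or 3 (adjusted p = 0.128, 0.116, 0.0692 and 0.129), and for Pir without wild type replicates 2 or 3 or Atp7b-/- replicates 1 or 2 (adjusted p = 0.0881, 0.101, 0.0966 and 0.0676). Without both libraries that go against their labelled sex Pir was at 1.51 (adjusted p = 0.0524) and no longer called, and Aox1 stayed called. The list had 7 genes called higher and 1 lower with DESeq2 and with no filter, and 0 to 2 higher over the leave-outs. Htatip2 (0.92, SE 0.21, adjusted p = 0.0599) and the nucleotide phosphatase gene Entpd5 (0.81, SE 0.20, adjusted p = 0.0776) had the next smallest p. The list's median was 0.35, and 12 of 19 were positive.

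Of the glutathione targets of NRF2, 4 of 15 tested genes rose, beside the 1.9% of all tested genes called higher. Among these 4, Ggt1 and Gsta1 reached the filter's minimum level in Atp7b-/- libraries alone, so that they had to differ in order to be tested. Of the remaining 13 genes 2 rose, with a median log2 fold change of 0.39. DESeq2 called 6 of the 15, the stricter filter left 3 called, and 0 to 4 were called over the leave-outs. The transferase genes Gsta1 (3.71, adjusted p = 0.00885), Gsta2 (1.54, adjusted p = 0.00885) and Gstm4 (1.24, adjusted p = 0.0179) were called. Gsta1 and Gsta2 are of 1 family and Gstm4 of another, and counts may be split between similar members of a family. Without wild type replicate 1 or Atp7b-/- replicate 3, the paired-end libraries, none of these 3 was called (adjusted p = 0.0744 to 0.164), and Gstm4 was also lost without Atp7b-/- replicate 1 (0.0586). With both libraries that go against their labelled sex left out, 2 of the list were called, Gstm3 and Gstm4, while Gsta1 (adjusted p = 0.0758), Gsta2 (0.0994) and Ggt1 (0.276) were not. Ggt1, which splits glutathione outside the cell, had 1 count in all wild type libraries and 38 in the Atp7b-/- ones, which is 27.8 times the level (95% exact interval 4.70 to 1128, counting error only; adjusted p = 0.0456, and 0.105 to 0.136 in the 3 leave-outs in which it was tested). The glutathione reductase gene Gsr (0.66, SE 0.19, adjusted p = 0.141) and Gstm3 (1.46, SE 0.47, adjusted p = 0.219) followed.

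The genes closest to Nfe2l2 and Srxn1 in pattern were sought by the root mean square difference of log2 CPM, after the mean of each layout was subtracted, over the 6 libraries and 11626 candidate genes. For Nfe2l2 they were Nfasc (0.0353), Zfp202 (0.0472) and Fam118a (0.0617), against a median of 0.502 over the candidates. For Srxn1 they were Ttc41 (0.0816), Mrgpre (0.0929) and Numbl (0.109), against a median of 0.632. None of these 6 genes was called (adjusted p = 0.155 to 0.446), and none is among the genes of the lists above.

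**Figure D4:**
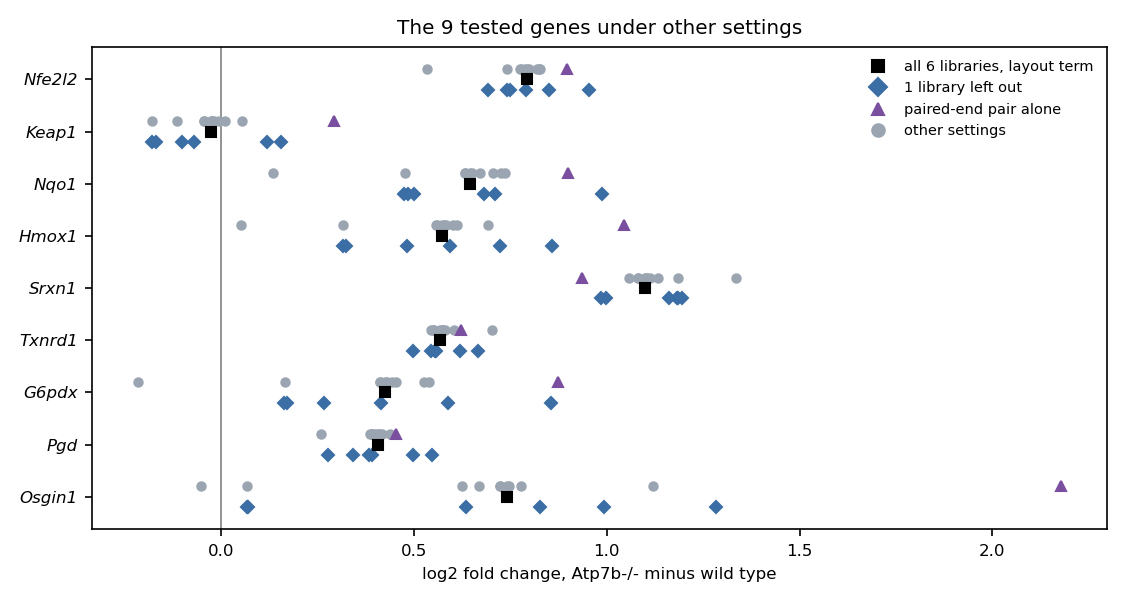
Log2 fold change (horizontal axis) of the 9 tested genes with all 6 libraries and a layout term (squares), with 1 library left out (diamonds), in the paired-end pair alone (triangles) and under the other settings (circles). Srxn1 stays between 0.94 and 1.33 and Txnrd1 between 0.50 and 0.70, while Osgin1 spreads from -0.05 to 2.18 and Keap1 lies on both sides of 0.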

How the data were processed

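Read counts for Ensembl genes, not normalized, were deposited by the authors in 1 table for the 6 libraries. STAR 2.4, featureCounts and edgeR 3.8 with build GRCm38 are named in the submitters' processing notes. The annotation release, the strand setting, the handling of multi-mapping reads and whether a read pair counts once could not be learned from those notes or the labels. Symbols, coordinates and exon lengths came from GENCODE vM21 (GRCm38).

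Genes were tested with edgeR 4.0.16 in R 4.3.3: a minimum count of 10 in the edgeR expression filter, TMM, and its quasi-likelihood test (robust) of genotype beside a term for layout. P-values of the 12988 tested genes were adjusted by Benjamini-Hochberg. Genes with an adjusted p under 0.05 were called. SE is the absolute log2 fold change over the square root of F. Differences within layouts use log2 CPM with a prior count of 2. Alternatives were other size factors, DESeq2 1.42.0, limma-voom (limma 3.58.1), other filters, other covariates and fewer libraries. The procedure was tested on simulated data with 200 changed genes. It recovered 31% of them at a log2 change of 1 and 92% at 2, with 8 false calls each time. A gene that did not pass the test may therefore still differ. Total counts set the precision, and intervals cover counting error only.

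All 10 genes are named, and of each other list the called genes and the 2 next smallest p. Pattern likeness was sought among genes with a symbol and a mean log2 CPM of at least 0. Genes and lists were chosen with earlier results of these data known. Of 200 list entries 199 matched a symbol.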

Additional observations from a re-analysis of the deposited data

How the results depend on the processing

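The numbers of genes called higher and lower over the whole table, 247 and 76, and of the 10 genes called higher, 1, depended on the layout term and on the paired-end libraries. They were 468, 302 and 2 with DESeq2, 672, 444 and 2 with no filter on low counts, 103, 23 and 0 in the single-end libraries alone, and 0, 0 and 0 either without the layout term or with labelled sex in its place. In those last 2 fits by edgeR, 545 and 381 genes had an unadjusted p under 0.05. Leaving out 1 library gave 96 to 242 higher, 22 to 81 lower and 0 to 1 of the 10 genes. Without both libraries that go against their labelled sex, an alternative chosen after seeing the data, 0 of the 10 were called.

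Of the 9 tested genes, 6 kept their sign in all 17 alternatives. Keap1 reversed to 0.0092 with no filter, 0.0536 with labelled sex and 0.29 in the paired-end pair, and ran from -0.18 to 0.16 over the leave-outs (0.12 and 0.16 with wild type replicate 3 or Atp7b-/- replicate 1 left out). Without both libraries that go against their labelled sex, G6pdx reversed to -0.22 and Osgin1 to -0.0524. The causes were not tested. No paired analysis was possible because replicates are numbered only as deposited and the labels tie no libraries together. Depth limits Slc7a11 (32 counts in all), Nqo1 and G6pdx (589 each).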
